A study of Mus musculus with 6 samples.

Results

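The genes of iron handling and of the Nrf2 antioxidant response described here were followed across the cell types of the mouse cortex after a stroke. The 10 genes were chosen by symbol (Hmox1, Fth1, Ftl1, Tfrc, Slc40a1, Slc7a11, Gclm, Nqo1, Txnrd1 and Srxn1), and all 10 are among the 32285 genes of the deposited count matrix. The matrix holds unique molecular identifier (UMI) counts from droplet single-cell RNA sequencing of 6 libraries. The stroke model was permanent middle cerebral artery occlusion (pMCAO), in which a distal branch of the left artery is closed by electrocoagulation. The 6 labelled samples came from the injured (ipsilateral) cortex or the matching region of the other (contralateral) hemisphere at 1, 12 and 24 h, with 1 library for each side and time. All animals were male RGS5 GFP/+ mice of 8 to 12 weeks, in which GFP replaces 1 allele of Rgs5, a gene used to mark pericytes, so that every sample carries that allele. The methods give 3 mice for this experiment, and no label ties a library to an animal. Neurons and myelin were depleted before sorting of live DAPI-negative cells, and neurons are accordingly not described. By the labels, the 12 h libraries were made with another version of the kit (v3.1, dual index) than the 1 and 24 h libraries (v3, single index), while the methods name v3.1 alone. The methods also give another sequencer for the 24 h samples (HiSeq) than for the 1 and 12 h samples (NovaSeq), so kit, sequencer and time cannot be told apart.

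The barcodes carry the library numbers 1 to 6, and nothing in the labels or files ties a number to a side or a time. Libraries are therefore described by number alone, and no comparison of ipsilateral with contralateral cortex or between times was made. With 1 library for each condition there is no replicate test, and no p-value is given. Levels are given as CPM, the UMIs of a gene summed over the cells of a cell type, divided by all UMIs of those cells and multiplied by 1e6. The intervals of a level are exact 95% Poisson intervals. Those of a ratio of class means are approximate 95% intervals from the same counts on the log scale. Both cover counting error only. The level of a cell class is the mean over the libraries that hold at least 20 of its cells, each library weighted alike.

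Cells take up iron bound to transferrin through the transferrin receptor (Tfrc), store it inside shells of ferritin heavy chain (Fth1) and light chain (Ftl1), and release it through ferroportin (Slc40a1). Heme oxygenase 1 (Hmox1) opens the heme ring and frees its iron, which links the breakdown of hemoglobin after bleeding or vessel injury to ferritin. The transcription factor Nrf2, encoded by Nfe2l2 and held in check by Keap1, binds antioxidant response elements and drives Hmox1, both ferritin chains, the cystine importer subunit xCT (Slc7a11), the modifier subunit of glutamate-cysteine ligase (Gclm), the quinone reductase Nqo1, thioredoxin reductase 1 (Txnrd1) and sulfiredoxin (Srxn1).

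All 10 genes are protein-coding in GENCODE vM21 on GRCm38, the assembly that mm10 names. The iron genes lie at chr8:75093621-75100589 on the plus strand (Hmox1), chr19:9980598-9985098 on the plus strand (Fth1), chr7:45457944-45459884 on the minus strand (Ftl1), chr16:32608920-32632794 on the plus strand (Tfrc) and chr1:45908068-45926523 on the minus strand (Slc40a1). The antioxidant genes lie at chr3:49892526-50443614 on the minus strand (Slc7a11), chr3:122245557-122270732 on the plus strand (Gclm), chr8:107388225-107403206 on the minus strand (Nqo1), chr10:82833951-82897712 on the plus strand (Txnrd1) and chr2:152105516-152111376 on the plus strand (Srxn1). An exon of Gclm overlaps Gm17494, a gene on the opposite strand that is also in the matrix. The matrix also holds Ftl1-ps1, named as a pseudogene of Ftl1 but listed as protein-coding, with 3548 UMIs against 363974 for Ftl1, and some reads may have been split between them.

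The core of the antioxidant response element (TGACNNNGC, sought on both strands) is shown where it occurs near a start site, because these genes are grouped by their control through it. RefSeq start-site windows of GRCm38.p6, from 250 bases before to 50 bases after the start, were held for 8 members (all except Hmox1 and Slc40a1). The core was found in 1 window each of Srxn1, Gclm and Txnrd1, and 12.4% of 32851 windows of all genes hold it. That share counts windows, and some members have more than 1, so it is not a share of genes. The windows of Slc7a11, Ftl1, Nqo1, Tfrc and Fth1 do not contain these letters, which says nothing of sites farther away. Each match is printed 5′ to 3′ on the strand of the gene with the core in capitals, and all 3 read on the opposite strand.
Srxn1, chr2:152105542-152105571, plus strand, core from base +29: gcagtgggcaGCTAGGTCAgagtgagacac
Gclm, chr3:122245413-122245442, plus strand, core from base -134: gctcccgggcGCACCGTCAactctcacgag
Txnrd1, chr10:82859104-82859133, plus strand, core from base -92 of 1 of its 3 start sites: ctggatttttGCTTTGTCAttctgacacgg

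After filtering, 17357 cells remained, between 1221 and 5873 for each library, with a median of 5338 UMIs per cell. The libraries held 12427757 to 40793772 UMIs in all, and their median depth per cell ranged from 5053 to 5661 UMIs. Across libraries, 26 barcode sequences occurred more than once (52 cells), and each was kept as a cell of its own library. Doublet calls made up 0.783 to 2.83% of the cells of a library and were kept. Libraries 4 and 6 stand apart in their cells. They hold 40.1% of all cells, but 95.2% of the monocyte-derived macrophage-like cells, 77.0% of the neutrophil-like cells, every cell of an unnamed cluster led by Il11 (cluster 20), 97.0% of a microglia-like cluster led by Lpl, 92.6% of an endothelial-like cluster led by Tmem252 and every cell of an oligodendrocyte-like cluster led by Serpina3n. The counts of members and the results turning on these libraries are also given without them. The exceptions are macrophage-like cells, neutrophil-like cells and cluster 20, of which the other libraries hold too few cells to rank.

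Cell classes were rebuilt from markers, without the 10 genes or their pathway lists among the genes used for clustering. The classes with at least 50 cells were microglia-like (8130 cells), oligodendrocyte-like (2817), endothelial-like (2746), astrocyte-like (1169), pericyte-like (826), monocyte-derived macrophage-like (377), neuroblast-like (338), smooth muscle-like (256), neutrophil-like (178), T lymphocyte-like (95) and B lymphocyte-like (55) cells. Cluster 15 (255 cells, led by H2-Eb1, Cd74 and Mrc1) carried leading markers of more than 1 type and stayed unnamed. Cluster 20 (62 cells, led by Il11) scored highest for pericytes, with 7 pericyte markers raised. Its 10 leading genes held 0 of those markers and 1 fibroblast marker, so it stayed unnamed and outside the pericyte-like class. Il11, Stc1, Ednrb and Rdh10, among its leading genes, are also reported by the paper for a pericyte subcluster that it calls stroke-specific. The clusters with choroid plexus markers (22 cells) and with fibroblast markers (31 cells) were too small to rank.

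The members differed in breadth. A UMI of Fth1 was found in 98.8% of all cells and of Ftl1 in 96.5%, of Hmox1 in 34.0%, Gclm in 33.7%, Slc40a1 in 28.3%, Txnrd1 in 24.7%, Tfrc in 18.9%, Slc7a11 in 9.31%, Srxn1 in 5.23% and Nqo1 in 0.939%. For Hmox1 and Slc7a11, 2 of the 10 members, the highest class was at least 2 times the next. Among all genes that reached 10 CPM, 30.7% of 13558 did so. The median ratio of the highest to the next class was 1.29 for the members and 1.43 for all these genes. Without libraries 4 and 6 together, 4 of the 8 members at 10 CPM or more passed that mark, against 32.7% of all genes, and the highest class changed for 9 of the 10, with Tfrc alone staying in endothelial-like cells. The macrophage-like and neutrophil-like classes then have fewer than 50 cells and are not ranked.

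**Figure D1:**
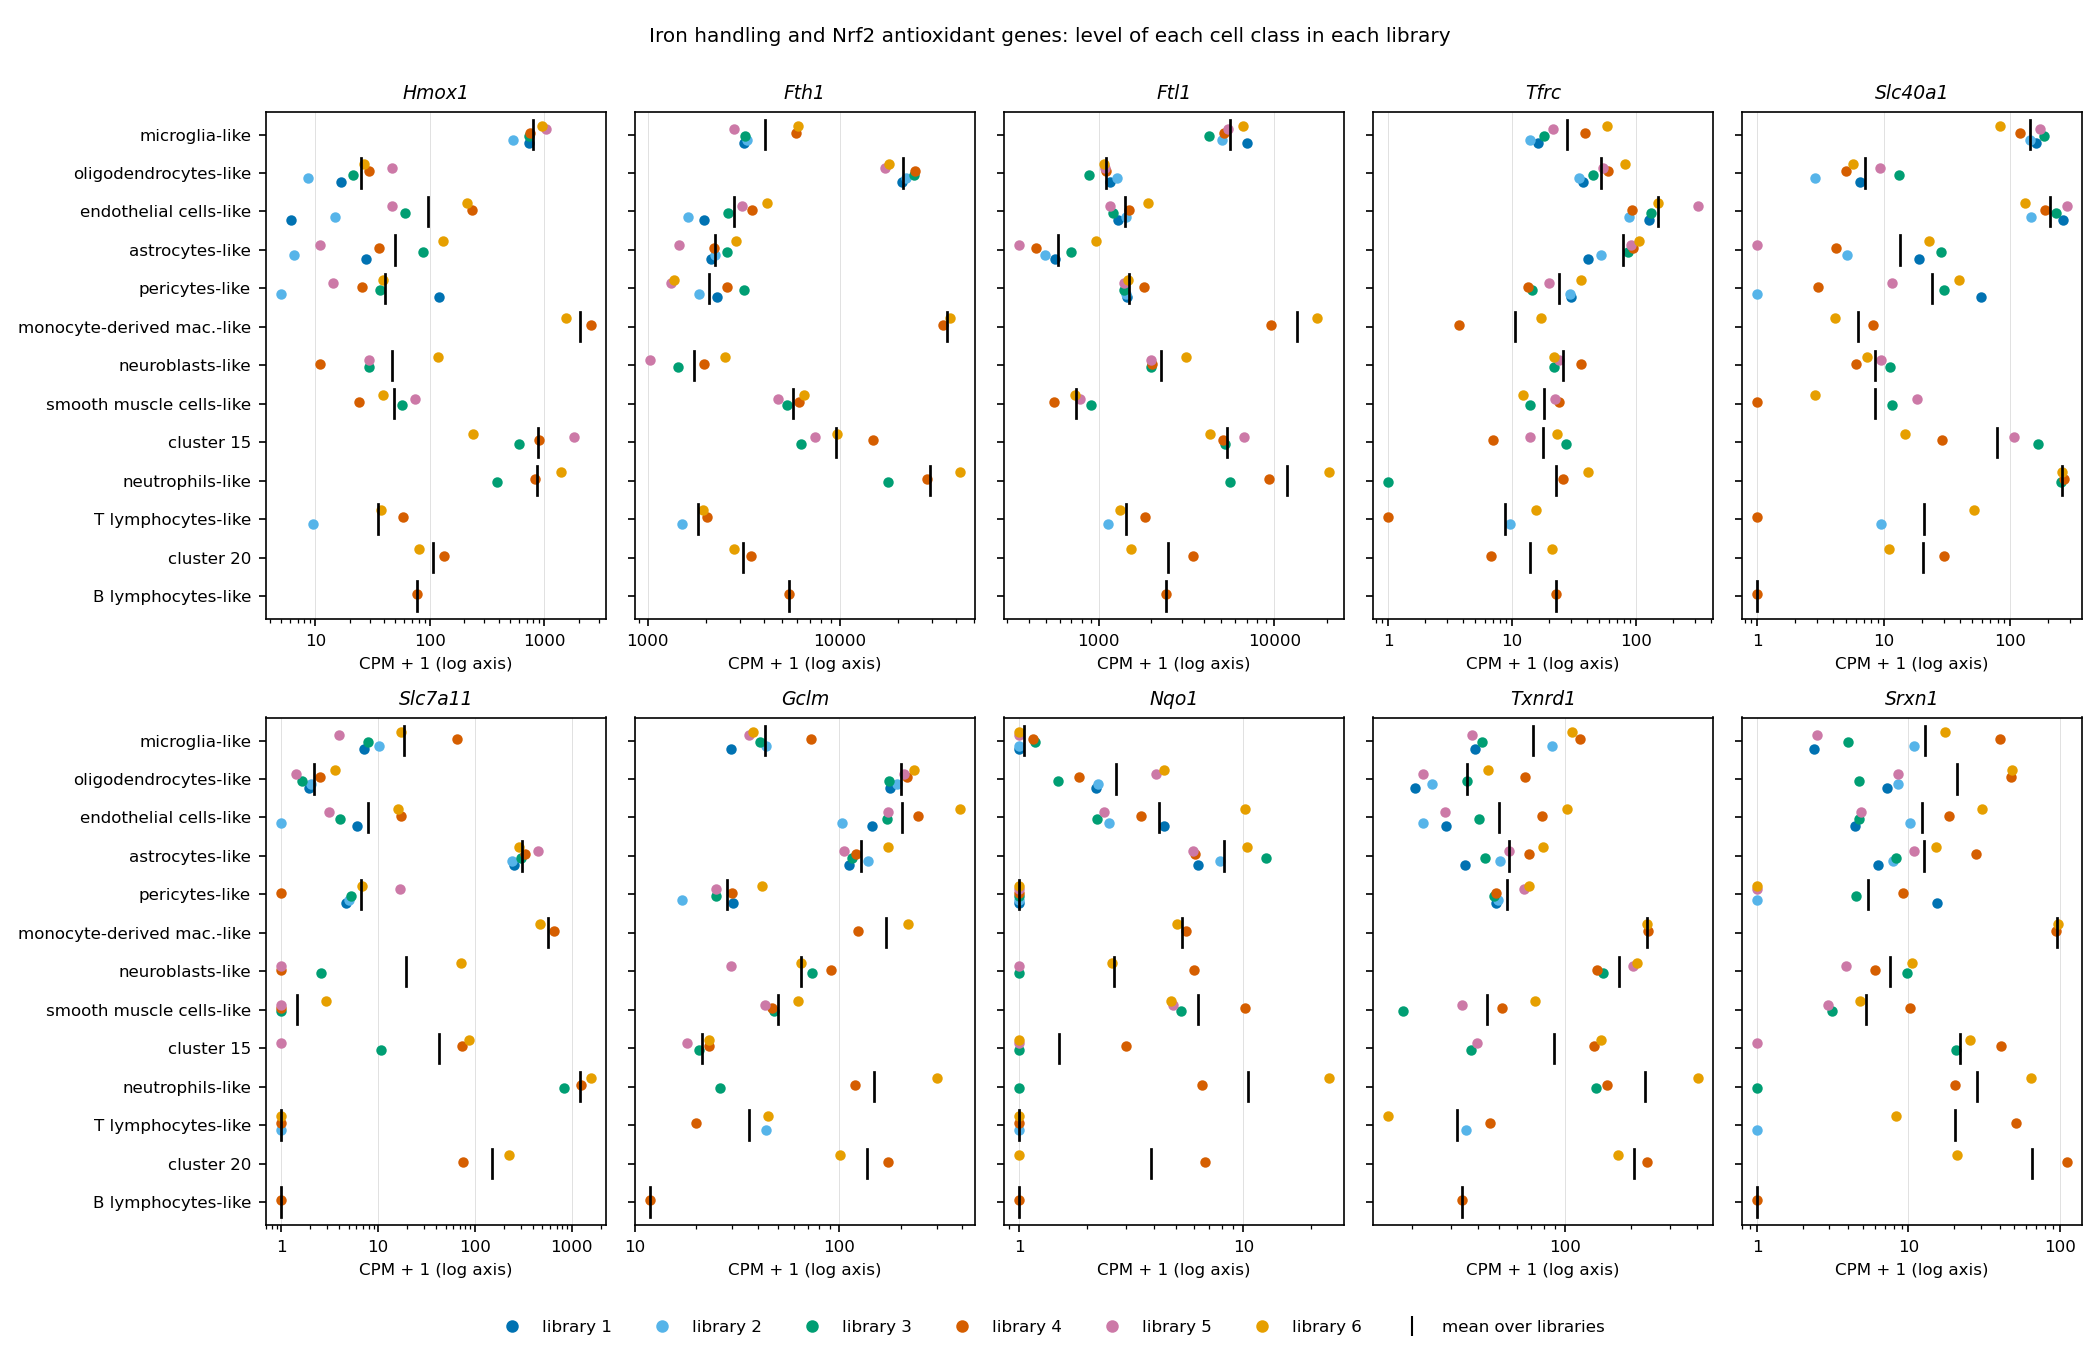
Level of each of the 10 genes (CPM + 1, log axis) in each cell class (rows). Each point is 1 library with at least 20 cells of the class, coloured by library number, and the black line is the mean over libraries. Hmox1 separates the macrophage-like, neutrophil-like and microglia-like rows and cluster 15 from the rest, Slc7a11 stands highest in neutrophil-like, macrophage-like and astrocyte-like cells, and the libraries of a class often lie far apart.

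Tfrc, the receptor for iron-loaded transferrin, was highest in endothelial-like cells, the cells that form the blood-brain barrier, at 150 CPM. It reached 127, 87.0, 132, 91.0, 312 and 149 CPM in libraries 1 to 6. Library 5 was the highest, and the endothelial-like class was the highest in 5 of the 6 libraries. Astrocyte-like cells followed at 77.2 CPM (40.2 to 105 CPM by library), a ratio of 1.94 (1.70 to 2.21) with overlapping library ranges. Oligodendrocyte-like cells held 50.9 CPM and microglia-like cells 26.7 CPM. A UMI of Tfrc was found in 35.9% of endothelial-like cells (13.8% after thinning every cell to 1000 UMIs) and in 5.45% of pericyte-like cells (1.44% thinned), at median depths of 4039 and 3319 UMIs. Without library 5 the ratio to astrocyte-like cells was 0.65 on the log2 scale, and without libraries 4 and 6 it was 1.31.

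Slc40a1, the only known iron exporter of mammalian cells, was expressed in neutrophil-like, endothelial-like and microglia-like cells. Neutrophil-like cells held 250.2, 264 and 258 CPM in libraries 3, 4 and 6, the closest agreement between libraries of any member in that class. Endothelial-like cells ranged from 130 to 279 CPM (median 209) and microglia-like cells from 82.6 to 185 CPM (median 151). The ratio of neutrophil-like to endothelial-like cells was 1.25 (1.03 to 1.52), and their library ranges overlapped. Monocyte-derived macrophage-like cells held 7.31 and 3.15 CPM in libraries 4 and 6, so 2 myeloid classes with high ferritin and high Slc7a11 lay far apart in the exporter. Oligodendrocyte-like cells lay between 1.89 and 12.3 CPM. The share of cells with a UMI was 48.3% in neutrophil-like cells (21.8% thinned), 45.1% in endothelial-like cells (17.5%) and 41.2% in microglia-like cells (12.7%), against 2.66% in oligodendrocyte-like cells (0.522% thinned) at a median depth of 8893 UMIs.

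Fth1, the ferritin chain that oxidises iron for storage, was highest in monocyte-derived macrophage-like cells, with 34456 CPM in library 4 and 37306 CPM in library 6. Neutrophil-like cells held 17787, 28336 and 41835 CPM in libraries 3, 4 and 6, and their range covers that of the macrophage-like cells. Oligodendrocyte-like cells came next, at 21060, 21989, 24314, 24632, 17090 and 17927 CPM in libraries 1 to 6. They were above cluster 15 (6241 to 14759 CPM) in a ratio of 2.23 (2.19 to 2.26), and the libraries of this pair did not overlap. The classes from smooth muscle-like cells (5669 CPM) down to neuroblast-like cells (1735 CPM) followed each other with overlapping libraries at each step. RNA outside cells, read from barcodes with 1 to 50 UMIs, held 8437 to 16694 CPM of Fth1, more than these lower classes, and its part in their levels was not tested.

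Ftl1, the chain that helps to build the iron core, had another order. Monocyte-derived macrophage-like cells (9567 and 17522 CPM) and neutrophil-like cells (5604, 9338 and 20381 CPM) were again highest. Microglia-like cells came next, with 6953, 5033, 4276, 5150, 5450 and 6626 CPM in libraries 1 to 6. Cluster 15 lay beside them at 5354 CPM, and a gap without overlap of libraries separated cluster 15 from cluster 20 (2494 CPM, ratio 2.15). Oligodendrocyte-like cells, rich in Fth1, held only 1096 CPM of Ftl1 (883 to 1265 CPM by library), and astrocyte-like cells were lowest at 584 CPM.

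The ratio of Fth1 to Ftl1 UMIs put the classes in a wide order. The ratio is compared between classes alone, since each gene is captured with its own efficiency. In microglia-like cells it was 0.453, 0.651, 0.751, 1.15, 0.514 and 0.913 in libraries 1 to 6, and in oligodendrocyte-like cells it was 18.1, 17.4, 27.5, 22.3, 15.8 and 16.7. The lowest oligodendrocyte-like library was thus far above the highest microglia-like library. Between them lay smooth muscle-like (median 7.50), astrocyte-like (3.96), neutrophil-like (3.04), endothelial-like (2.17) and pericyte-like (1.36) cells. Macrophage-like cells stood at 3.60 in library 4 and 2.13 in library 6, above every microglia-like library. Within microglia-like cells the 2 highest ratios came from libraries 4 and 6.

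**Figure D2:**
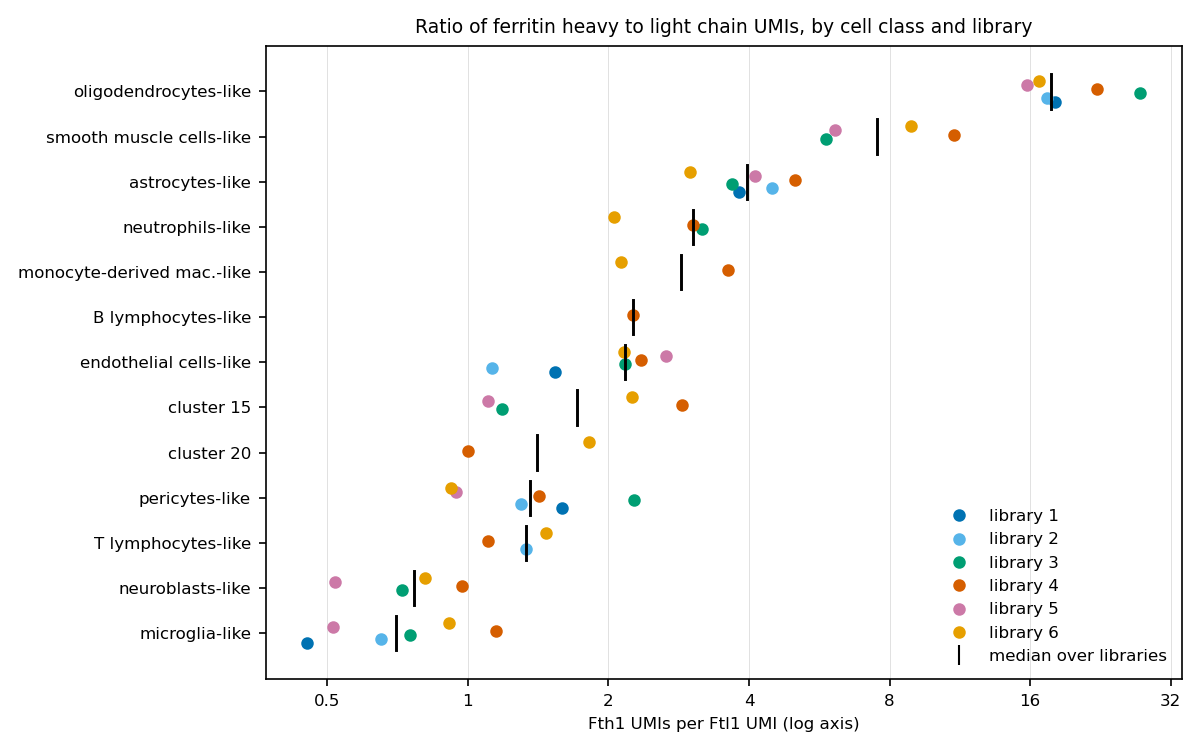
Ratio of Fth1 to Ftl1 UMIs (log axis) in each cell class (rows). Each point is 1 library with at least 20 cells of the class, and the black line is the median over libraries. Oligodendrocyte-like cells lie between 15.8 and 27.5 and microglia-like cells between 0.453 and 1.15.

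Hmox1, the inducible heme oxygenase, split the classes into a high and a low set. Monocyte-derived macrophage-like cells held 2535 CPM in library 4 and 1549 CPM in library 6. Cluster 15 ranged widely, at 595, 894, 1814 and 238 CPM in libraries 3 to 6. At clustering resolution 1.2 it has no counterpart, and a perivascular macrophage-like (123 cells) and a dendritic-like cluster (132 cells) appear instead. The first holds 36, 35, 28 and 17 cells in libraries 3 to 6, and the second 13, 24, 1 and 91. The part of this make-up in the range was not tested. Neutrophil-like cells held 388, 821 and 1389 CPM in libraries 3, 4 and 6. Microglia-like cells held 742, 534, 730, 748, 1032 and 959 CPM in libraries 1 to 6, less than 2 times apart. The next class down was cluster 20 at 106 CPM, a ratio of 7.45 (5.44 to 10.2) with no overlap between libraries. Every class below it overlapped its neighbours, down to 23.9 CPM in oligodendrocyte-like cells. The macrophage-like class was 2.31 times (2.16 to 2.46) cluster 15, and without library 4 this fell to 0.81 on the log2 scale, below the mark of 2 times.

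A UMI of Hmox1 was seen in 88.3% of macrophage-like cells, 55.9% of microglia-like cells and 55.6% of neutrophil-like cells, or 55.7, 31.5 and 33.1% at 1000 UMIs per cell. In pericyte-like cells the share was 4.72% (1.47% thinned). The pericyte-like value of library 1, 120 CPM, came from 33 UMIs of which 29 were in 1 cell, and the other 5 libraries held 4.02 to 38.2 CPM. Likewise 75 of the 104 Hmox1 UMIs of oligodendrocyte-like cells in library 5 (45.7 CPM) were in 1 cell. Hmox1 in RNA outside cells was 156 to 434 CPM, more than the mean level of every class in the low set, and its part in those levels was not tested.

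Slc7a11 exchanges glutamate for cystine, the precursor of glutathione. Neutrophil-like cells were highest with 826, 1242 and 1566 CPM in libraries 3, 4 and 6. Macrophage-like cells held 658 and 475 CPM in libraries 4 and 6, and astrocyte-like cells held 256, 240, 299, 327, 451 and 283 CPM in libraries 1 to 6. No libraries overlapped between neutrophil-like, macrophage-like and astrocyte-like cells or between the last and cluster 20 (75.0 and 224 CPM). The first step was 2.14 times (1.95 to 2.35), and without library 6 it was 0.65 on the log2 scale, below the mark of 2 times. Slc7a11 UMIs occurred in 84.3% of neutrophil-like cells (58.3% thinned) and 63.0% of astrocyte-like cells (23.9%), against 0.816% of oligodendrocyte-like cells, whose libraries lay between 0.4 and 2.6 CPM. The small fibroblast-like cluster held 419 UMIs, 2120 CPM (1921 to 2333) over its pooled cells, and 74.2% of its 31 cells had a UMI.

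Gclm had its highest class means in endothelial-like and oligodendrocyte-like cells, without a gap to the classes that followed. Endothelial-like cells held 144, 102, 170, 242, 172 and 387 CPM, and oligodendrocyte-like cells 176, 191, 174, 214, 206 and 231 CPM. The class means of 203 and 199 CPM had a ratio of 1.02 (0.968 to 1.08), so no order between them was detectable. Oligodendrocyte-like libraries were close together, while endothelial-like libraries spread 3.78 times. In 74.2% of oligodendrocyte-like cells and 47.2% of endothelial-like cells a UMI was found, or 16.8 and 16.2% at 1000 UMIs per cell. Astrocyte-like cells (126 CPM, 104 to 172 by library) were above neuroblast-like cells (63.9 CPM) without overlap, and pericyte-like cells held 16.1 to 41.1 CPM.

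Txnrd1, which keeps thioredoxin reduced, was highest in macrophage-like cells at 238 and 235 CPM, followed by neutrophil-like cells at 138, 154 and 402 CPM. The interval of their ratio, 1.02 (0.837 to 1.25), includes 1. Neuroblast-like cells came close, with 147, 138, 204 and 212 CPM in libraries 3 to 6, and cluster 20 held 237 and 174 CPM. Pericyte-like cells were steady at 46.5 to 67.6 CPM.

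Srxn1 repairs over-oxidised peroxiredoxins. It was highest in macrophage-like cells at 93.2 and 95.8 CPM, with cluster 20 next at 110 and 19.9 CPM (ratio 1.46, 0.953 to 2.23). At clustering resolution 1.2 an unnamed cluster of 370 cells, led by Mmp12, Lpl and Spp1, was highest for both Srxn1 and Txnrd1. That cluster scored highest for microglia. Nqo1, which reduces quinones, was scarce everywhere, with 197 UMIs in all cells. Its highest ranked class was neutrophil-like cells at 0, 5.51 and 23.0 CPM, and library 6 set that place. Astrocyte-like cells held 5.0 to 11.5 CPM in all 6 libraries and were the highest class without library 6. In pericyte-like cells 0 of 826 cells had a UMI, which allows a level of up to 0.954 CPM by the limit of 3 UMIs, or 1.17 CPM by the upper Poisson bound. The choroid plexus-like cluster held 18 Nqo1 UMIs, 105 CPM (62.5 to 167), in 54.5% of its 22 cells.

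Within a class, the libraries were compared by the ratio of the highest to the lowest, with a library under 3 UMIs set to 3 UMIs. In microglia-like cells 7 of the 9 members at 10 CPM or more were at least 2 times apart, where 32.5% of all genes at that level were. In endothelial-like cells it was 7 of 8 members (44.2% of all genes), in oligodendrocyte-like cells 4 of 7 (19.1%), in astrocyte-like cells 6 of 9 (53.3%) and in pericyte-like cells 5 of 7 (63.4%). The share of members was above that of all genes in each class, by less in astrocyte-like and pericyte-like cells. The pericyte-like count was smaller with doublets removed, as given in the closing section. In that class the highest library for Hmox1, library 1, held 29 of its 33 UMIs in 1 cell. Because the members were chosen with earlier results of these data known, no conclusion is drawn from the difference between members and all genes. The mark of 10 CPM also uses the mean, which the highest libraries raise. Srxn1 had medians of 6.42 CPM in microglia-like, 6.49 in endothelial-like, 7.51 in oligodendrocyte-like and 8.61 in astrocyte-like cells. Slc7a11 had a median of 8.13 CPM in microglia-like cells. These were counted only through their highest libraries, which favours ratios of at least 2. The same mark was used for all genes. Without libraries 4 and 6 the counts were 1 of 7 members in microglia-like (9.61% of all genes), 2 of 7 in endothelial-like (28.1%), 1 of 6 in oligodendrocyte-like (10.1%), 3 of 8 in astrocyte-like (34.3%) and 4 of 7 in pericyte-like cells (43.4%). The share of all genes thus fell in each class as well.

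In microglia-like cells, libraries 4 and 6 were the highest for Fth1, with 3150, 3278, 3212, 5929, 2802 and 6052 CPM in libraries 1 to 6. Tfrc was likewise highest in libraries 4 (37.6 CPM) and 6 (57.1 CPM) and at most 20.2 CPM in the rest. Slc40a1 ran the other way, with 160, 142, 185, 120, 173 and 82.6 CPM, so the same libraries were lowest for the exporter. Slc7a11 reached 63.9 CPM in library 4 and 16.2 CPM in library 6, against 2.9 to 9.4 CPM elsewhere. Srxn1 stood at 39.2 CPM in library 4 and 16.5 CPM in library 6, and at 9.9 CPM or less elsewhere. Hmox1 and Ftl1 varied less than 2 times, and for neither of them were libraries 4 and 6 both on top. In RNA outside cells Srxn1 was also highest in libraries 4 (40.2 CPM) and 6 (37.9 CPM), against 3.1 to 6.5 CPM in the other 4. Slc7a11 outside cells was likewise highest there, at 59.9 and 78.9 CPM against 17.9 to 32.9 CPM. For neither Fth1 nor Tfrc were libraries 4 and 6 both on top outside cells. The part of RNA outside cells in these values was not tested.

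**Figure D3:**
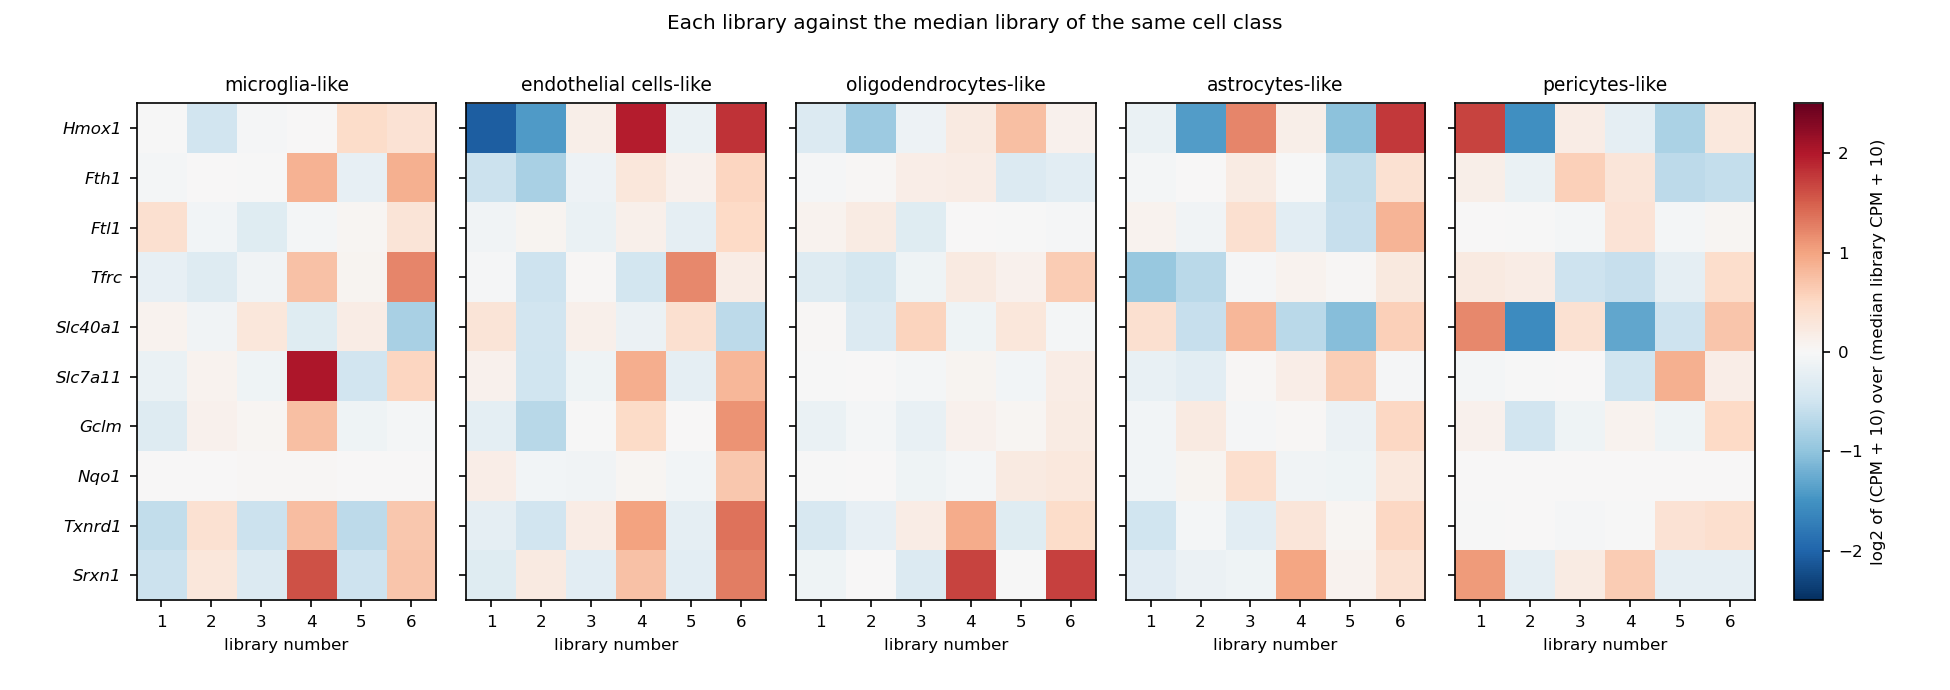
Each library (columns, by number) against the median library of the same class for each member (rows), in the 5 classes held by all 6 libraries. Colour is the log2 ratio of CPM + 10 to the median library's CPM + 10, red for higher and blue for lower. In microglia-like cells Fth1, Tfrc, Slc7a11 and Srxn1 are highest in libraries 4 and 6 while Slc40a1 is lowest there.

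Most of that spread lay in the Lpl-led cluster 5, of which libraries 4 and 6 hold 97.0%. Without it, the ratio of the highest to the lowest microglia-like library went from 2.16 to 1.23 for Fth1, from 4.39 to 1.93 for Tfrc, from 2.24 to 1.43 for Slc40a1 and from 3.16 to 2.30 for Txnrd1. Slc7a11 (4.96 times) and Srxn1 (6.07 times) stayed apart, but at mean levels of 5.29 and 3.77 CPM they were under 10 CPM and no longer counted. Of the 7 members still at 10 CPM or more, 1 was then at least 2 times apart, against 19.3% of all genes. Across clusters, cluster 5 held 8366 CPM of Fth1 over pooled cells, against 2498 to 3785 CPM in the 3 other large microglia-like clusters. It held 79.0 CPM of Slc40a1 against 146 to 183 CPM, 55.8 CPM of Srxn1 (51.3 to 60.5) against 1.60 to 5.90 CPM, and 87.1 CPM of Slc7a11 (81.5 to 93.0) against 4.30 to 8.58 CPM. The Slc7a11 value was uneven between libraries of the cluster, at 0 CPM in library 3, 140 CPM in library 4 and 23.0 CPM in library 6.

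Hmox1 and Ftl1 divided the microglia-like clusters along another line. Hmox1 was 1346 CPM (1327 to 1365) in cluster 0, led by Atf3 with the immediate-early genes Fos and Egr1, 856 CPM in cluster 5, 610 CPM in the Maf-led cluster 3 and 95.1 CPM (89.1 to 101) in cluster 1, led by Hbb-bt with P2ry12. In every library cluster 0 was above cluster 1 in Hmox1, with 953 to 1708 CPM against 63.1 to 113 CPM. Ftl1 followed the same order at the ends, with 7062 CPM in cluster 0 and 1593 CPM in cluster 1. Immediate-early genes are named here only as leading genes of cluster 0, and their part in this difference was not tested. Hemoglobin RNA in cluster 1 was 416, 195, 4122, 14330, 13.7 and 9454 CPM in libraries 1 to 6, against 52.3, 164, 29.5, 18.9, 6.76 and 41.0 CPM in cluster 0. It was higher in cluster 1 than in cluster 0 in every library, though by little in library 2. The part of hemoglobin RNA in the Hmox1 difference was not tested.

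**Figure D4:**
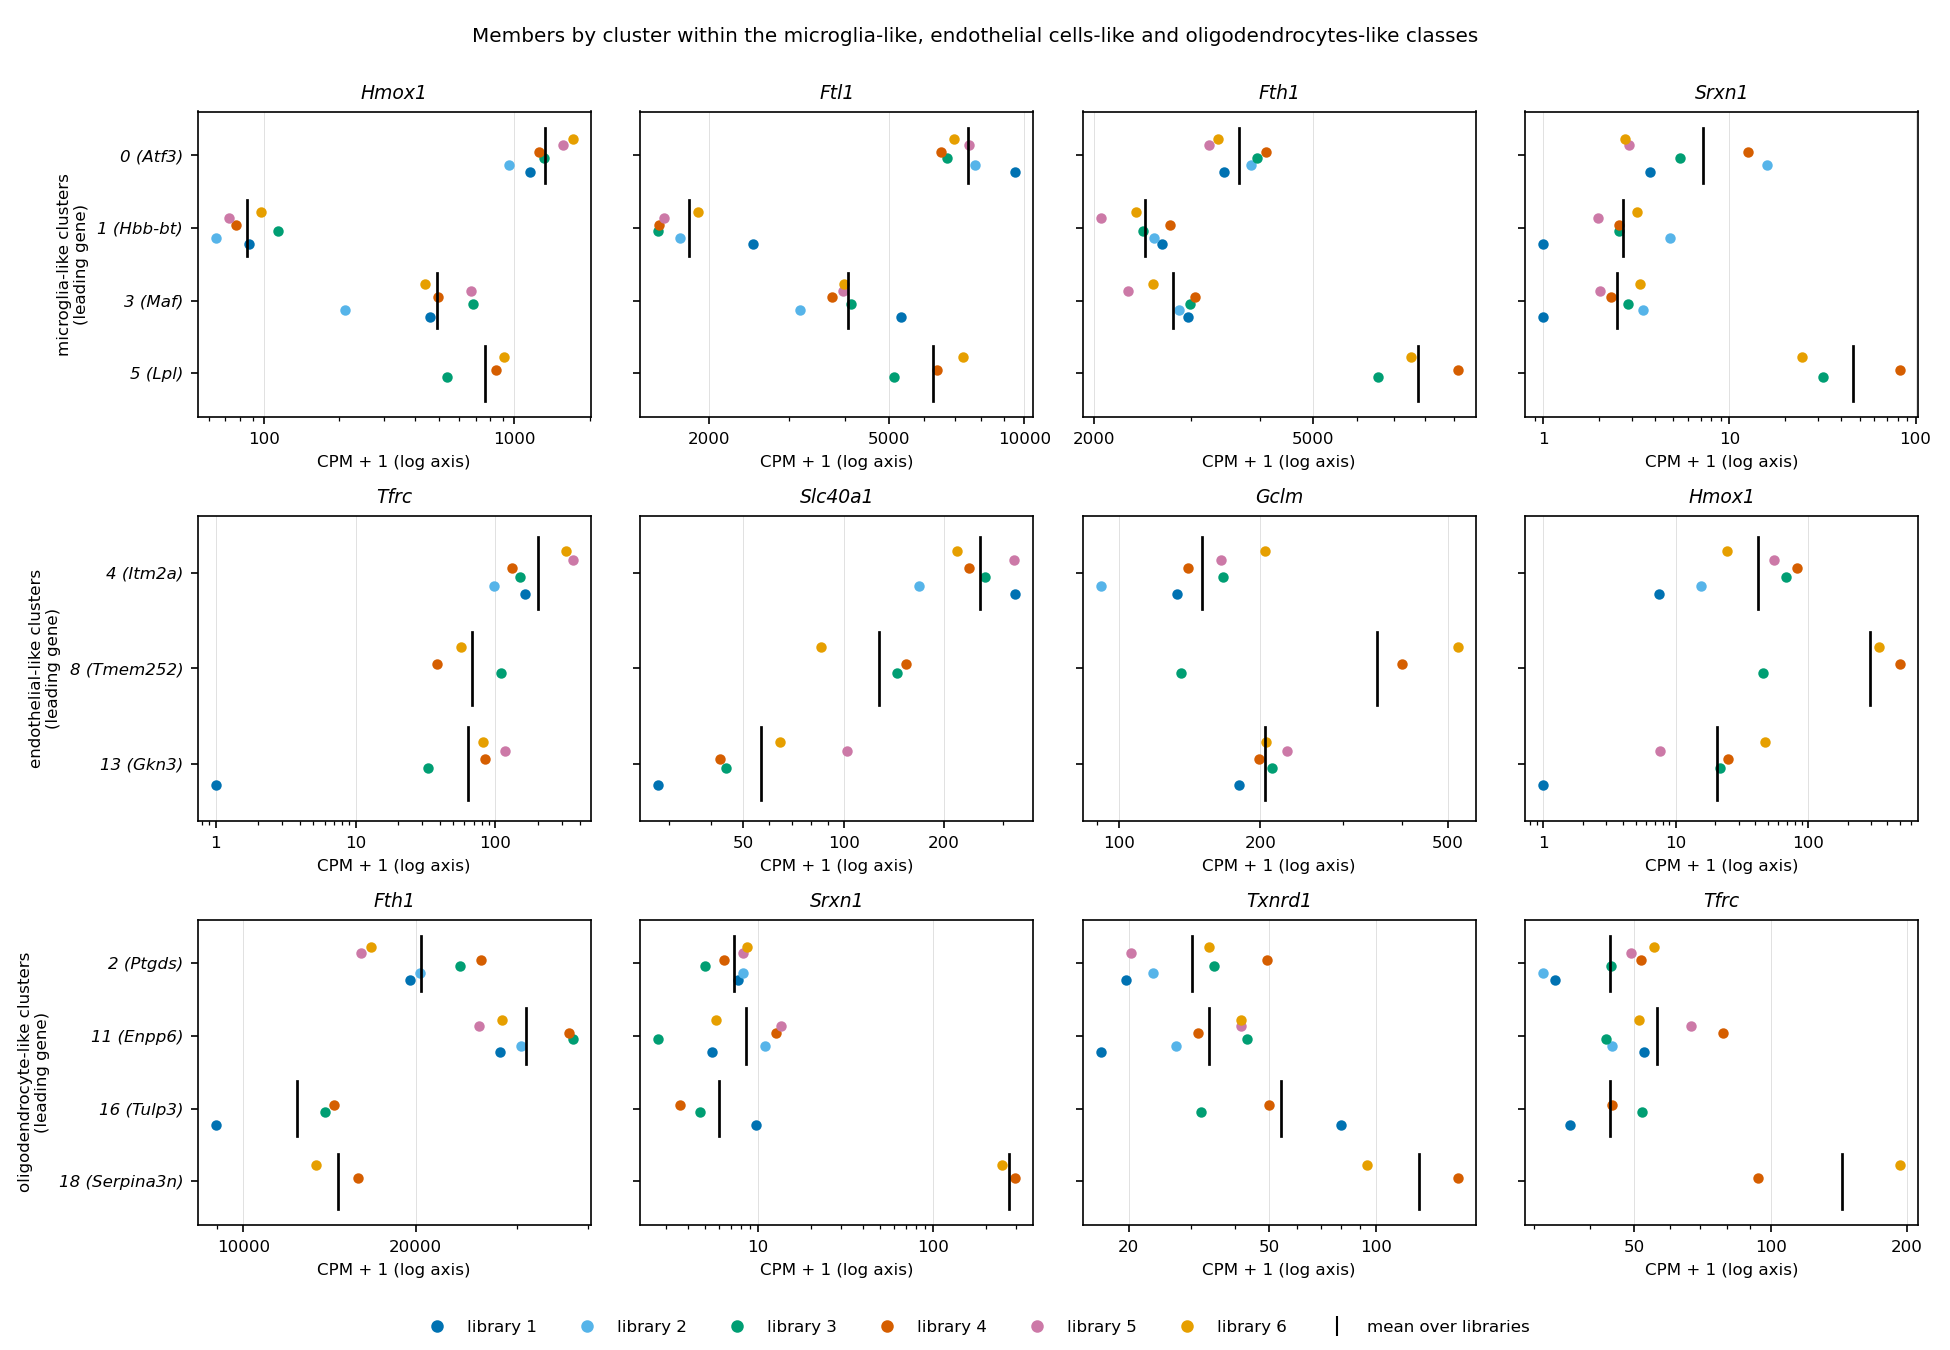
Levels of selected members (CPM + 1, log axes) in the large clusters (rows, with the leading gene) of microglia-like, endothelial-like and oligodendrocyte-like cells. Points are libraries with at least 20 cells of the cluster and the black line is their mean. Hmox1 lies between 953 and 1708 CPM in microglia-like cluster 0 and between 63.1 and 113 CPM in cluster 1, and Srxn1 is highest in oligodendrocyte-like cluster 18.

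Endothelial-like cells showed the widest range of Hmox1 between libraries, with 5.15, 13.7, 59.9, 234, 46.0 and 210 CPM in libraries 1 to 6. Libraries 4 and 6 were the highest and libraries 1 and 2 the lowest, and those rested on 3 and 9 UMIs. The summed level of the 6 microglia markers in these cells was 117, 319, 1771, 934, 311 and 136 CPM, with all 6 detected in each library. It was highest in library 3 and lowest in library 1, and its part in the Hmox1 values was not tested. Marker sums of macrophage-like and neutrophil-like cells, which lie mostly in libraries 4 and 6, are not given here. Txnrd1 was also highest in libraries 4 (77.5 CPM) and 6 (101 CPM), against 21.4 to 39.6 CPM, as was Gclm with 242 and 387 CPM. For Tfrc the highest library was library 5. In RNA outside cells Txnrd1 was likewise highest in libraries 4 and 6, at 68.8 and 75.8 CPM against 27.0 to 37.3 CPM. Gclm outside cells was not, at 93.3 and 110 CPM there against 72.6 to 125 CPM. The part of RNA outside cells in these values was not tested.

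The Tmem252-led cluster 8 carried much of the spread of Hmox1 and Gclm between endothelial-like libraries. Over pooled cells, Gclm was 453 CPM in cluster 8, 159 CPM in the Itm2a-led cluster 4 and 211 CPM in the Gkn3-led cluster 13. Hmox1 was 359 CPM in cluster 8 and 52.8 CPM in cluster 4, and Srxn1 was 39.3 and 4.39 CPM, with cluster 13 below cluster 4 in Hmox1 and at 8.82 CPM in Srxn1. The iron transporters differed in the other direction from cluster 4, with Tfrc at 56.8 CPM in cluster 8 against 224 CPM, and Slc40a1 at 105 CPM against 267 CPM. Cluster 13 was low in both as well, at 68.6 CPM of Tfrc and 61.8 CPM of Slc40a1. Within library 4 and within library 6 the directions between clusters 8 and 4 held for all 5 genes. In library 3, which had only 20 cells of cluster 8, Hmox1 was 44.9 CPM in cluster 8 against 66.9 CPM in cluster 4 and Gclm 135 against 165 CPM, so neither was higher there. Without cluster 8 the spread between libraries went from 45.5 to 14.1 times for Hmox1 and from 3.78 to 1.94 times for Gclm, and that of Tfrc was 3.59 and then 3.63 times.

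Oligodendrocyte-like cells varied most in Srxn1, with 6.2, 7.6, 3.7, 46.7, 7.5 and 47.5 CPM in libraries 1 to 6. Libraries 4 and 6 were the highest, as they were for the same gene in RNA outside cells. The Serpina3n-led cluster 18, 120 cells of these 2 libraries, held 279 CPM (251 to 310) over pooled cells, against 2.90 to 6.96 CPM in the 3 other clusters. Without it the spread fell from 12.7 to 2.03 times. Cluster 18 was also the highest of these clusters in Txnrd1 (145 CPM against 29.9 to 37.7 CPM) and Tfrc (124 CPM against 41.9 to 58.1 CPM). Its Fth1, 15068 CPM, lay below the 21709 CPM of the Ptgds-led cluster 2 and the 31193 CPM of cluster 11, led by Enpp6, S100b and Klk6. In cluster 16, Hmox1 (152 CPM) and Slc40a1 (96.5 CPM) were raised above the other clusters, and 40.8% of its cells were called doublets.

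Astrocyte-like and pericyte-like cells, the latter without cluster 20, gave less of a pattern. Clusters 5, 8 and 18, mostly of libraries 4 and 6, stayed in their classes. Cluster 20, of the same libraries, was left out of the pericyte-like class. It held 205 CPM of Txnrd1, 136 of Gclm, 149 of Slc7a11 and 64.8 of Srxn1. The pericyte-like class held 53.5, 27.2, 5.63 and 4.38 CPM. Tfrc and Slc40a1 were lower in cluster 20, at 12.8 and 19.4 CPM against 22.8 and 23.0 CPM. The part of this choice in the pattern was not tested. In astrocyte-like cells Slc7a11 kept within 2 times between libraries, Nqo1 was 10.3 CPM in cluster 7 and 1.56 CPM in cluster 9 over pooled cells, and Gclm was 144 and 62.3 CPM. Hmox1 in astrocyte-like cells, at 26.4, 5.51, 85.4, 35.2, 9.91 and 128 CPM, was highest in libraries 3 and 6, and the summed microglia markers in these cells were also highest there, at 1390 and 705 CPM against 89.2 to 485 CPM. Their part in it was not tested. Pericyte-like cells had Ftl1 between 1393 and 1813 CPM in all 6 libraries, and Fth1 between 1316 CPM in library 5 and 3154 CPM in library 3.

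Other genes of the pathways were counted from lists of 33 iron genes and 42 Nrf2 and antioxidant genes. Of the iron genes, 28 reached 10 CPM and 9 had a highest class at least 2 times the next, with a median ratio of 1.44. Of the Nrf2 and antioxidant genes, all 42 reached it and 12 did so, with a median ratio of 1.45. Both shares lie near the 30.7% of all genes. Transferrin itself (Trf) was highest in oligodendrocyte-like cells at 5456 CPM (3920 to 7436 by library), 6.96 times the 784 CPM of microglia-like cells. Haptoglobin (Hp), which binds free hemoglobin, was highest in neutrophil-like cells at 1816 CPM (1079 to 2352 by library). Cd163, the receptor for that complex, was highest in cluster 15 at 212 CPM (26.1 to 342 by library). Lipocalin 2 (Lcn2), which binds iron-carrying siderophores, stood at 3861 CPM in neutrophil-like cells (1326 to 6117 by library). There Fbxl5, an iron sensor that marks the iron regulatory proteins for breakdown, reached 825 CPM (735 to 901 by library). The metalloreductase Steap4 had its highest mean in cluster 20, at 191 CPM. Its 2 libraries there held 69.6 and 312 CPM, the lower of them under the 87.3 CPM mean of neutrophil-like cells. Without libraries 4 and 6, 10 of 26 iron genes and 11 of 41 Nrf2 and antioxidant genes passed the mark of 2 times (32.7% of all genes), with Trf still highest in oligodendrocyte-like cells (4977 CPM) and Cd163 in cluster 15 (326 CPM), while the neutrophil-like class and cluster 20 were not ranked.

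Among the regulators, Nfe2l2 was highest in neutrophil-like cells (915 CPM), followed by macrophage-like (522 CPM) and microglia-like cells (432 CPM), Keap1 in endothelial-like cells (71.5 CPM) and Bach1, a repressor of Hmox1, in microglia-like cells (190 CPM). Without libraries 4 and 6, Nfe2l2 was 424 CPM in cluster 15 and 422 CPM in microglia-like cells. From the iron list, Ireb2 was highest in neuroblast-like cells (58.1 CPM, 1.33 times the next class) and Aco1 in astrocyte-like cells (36.6 CPM, 1.48 times). The antioxidant genes that passed the mark of 2 times were spread over classes. Glutathione reductase (Gsr) was highest in neutrophil-like cells at 713 CPM, the peroxiredoxin Prdx6 in astrocyte-like cells at 1535 CPM with the glutathione transferase Gstm1 at 739 CPM, and mitochondrial superoxide dismutase (Sod2) in cluster 20 at 909 CPM. Of the other transferases, Gsta4 was highest in endothelial-like cells at 354 CPM, with the exporter Abcc4 at 148 CPM, and Gstp1 in oligodendrocyte-like cells at 227 CPM, where its libraries ranged from 23.5 to 543 CPM. Osgin1 was highest in neutrophil-like cells at 237 CPM and the epoxide hydrolase Ephx1 in pericyte-like cells at 176 CPM. Between libraries, 11 of 30 Nrf2-list genes and 3 of 18 iron-list genes were at least 2 times apart in microglia-like cells (32.5% of all genes), 20 of 35 and 7 of 20 in endothelial-like cells (44.2%), 6 of 31 and 1 of 13 in oligodendrocyte-like cells (19.1%), 17 of 36 and 11 of 20 in astrocyte-like cells (53.3%), and 16 of 35 and 10 of 20 in pericyte-like cells (63.4%). Most of these shares lay near or below that of all genes. Without libraries 4 and 6 they were 2 of 30 and 0 of 17 in microglia-like cells (9.61% of all genes) and 9 of 33 and 5 of 20 in endothelial-like cells (28.1%).

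Likeness of pattern was measured by Pearson's r of log2(CPM + 10) over 53 class-by-library points, which share libraries, depth and RNA outside cells and are not independent. Among members, Hmox1 and Ftl1 were the most alike (r = 0.847), followed by Tfrc with Gclm (0.606) and Slc7a11 with Txnrd1 (0.597), and Ftl1 with Tfrc was the lowest pair (-0.407). Over the 26 points without libraries 4 and 6 these were 0.817, 0.711, 0.0938 and -0.497. Those points hold no macrophage-like or neutrophil-like cells, the classes with the highest means of both Slc7a11 and Txnrd1. Whether the fall for that pair came from the libraries or from the lost classes was not tested. Over all genes, those most like Hmox1 were Cd14 (0.907), Slc15a3 (0.893) and Lrrc25 (0.892). The gene most like Tfrc was Slc16a1 (0.802), for Slc40a1 it was Arap3 (0.904), for Fth1 Adssl1 (0.869), for Ftl1 Igsf6 (0.891), for Slc7a11 Por (0.851), for Txnrd1 Lmnb1 (0.745), for Srxn1 Pgk1 (0.705) and for Nqo1 Upp1 (0.639).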

How the data were processed

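Whole-cell suspensions were sequenced on the 10x Chromium platform. Per the labels and the matrix header, the authors made the deposited UMI counts with Cell Ranger 5 (5.0.1) against mm10 and aggregated the 6 libraries with depth normalisation, which may thin reads of deeper libraries. Positions came from GENCODE vM21 and start-site windows from RefSeq GRCm38.p6, and 32158 of the 32285 gene IDs matched GENCODE.

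Cells were called for each library by a cut on the UMI totals of its 6794880 barcodes, which the study does not state. At least 200 genes and at most 10% mitochondrial UMIs were also required, as in the study. The study's stated filters alone left 19864 barcodes. That number and the number of cells kept here both lie below the cell number that the paper reports. Clustering (Leiden, resolution 0.8, 20 neighbours, 30 components of 2000 variable genes, 85 listed genes left out) used Python 3.11.15, scipy 1.17.1 and leidenalg 0.10.2. A cluster was named "X-like" with at least 3 markers raised 2 times and a lead of 1 on the log2 scale. The naming thresholds were set after the data were seen, so differences from the study may come from rebuilt names. The members and lists were chosen with earlier results of these data known. Genes named from the 2 lists had a highest class at least 2 times the next and 100 CPM there. Nfe2l2, Keap1, Bach1, Ireb2, Aco1 and the members were named by design. Doublets were called by simulated pairs and kept. Scripts were tested on simulated data. Alternatives are given in the closing section. The likeness result for Gclm is not reported here.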

Additional observations from a re-analysis of the deposited data

How the results depend on the processing

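No paired analysis was possible because each condition has 1 library and the library numbers tie to no sample. Of 17 settings, the highest class was kept in 17 for Tfrc, 16 for Hmox1, Fth1, Slc40a1 and Slc7a11, 15 for Ftl1, Nqo1 and Srxn1, 14 for Gclm and 12 for Txnrd1. At clustering resolution 0.4 the members at least 2 times apart between libraries in pericyte-like cells came to 8, and with doublets removed to 3. No cluster led by Il11 stood apart at resolution 0.4, where the pericyte-like class had 927 cells rather than 826. The part of the added cells in the count of 8 was not tested. At resolution 1.2 the members with a class at 2 times the next came to 1 and those apart in microglia-like cells to 3. Leaving out libraries 4 and 6 together, chosen after seeing the data, gave 4 members with a class at 2 times the next and 1, 2, 1 and 3 apart in microglia-like, endothelial-like, oligodendrocyte-like and astrocyte-like cells. Leaving out the clusters led by Lpl, Tmem252 and Serpina3n, also chosen afterwards, gave 1 of 7 members in microglia-like cells (19.3% of all genes). It gave 3 of 7 in endothelial-like cells (41.7%), near the share of all genes, and 2 of 6 in oligodendrocyte-like cells (16.6%). No share of all genes was counted for the other resolutions, for doublets removed or for single libraries left out. Leaving out 1 library at a time gave 2 to 3 members with a class at 2 times the next, and 4 to 7 apart in microglia-like, 5 to 7 in endothelial-like, 3 to 4 in oligodendrocyte-like, 4 to 6 in astrocyte-like and 4 to 5 in pericyte-like cells, with 4 in microglia-like cells without library 4.

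The log2 ratio of the highest to the next class turned for Txnrd1 when CPM was averaged cell by cell (-0.16), without library 3 (-0.23) and without library 4 (-0.20), for Ftl1 without library 3 (-0.13), for Nqo1 without library 6 (-1.29), and for Gclm without library 4 (-0.0040), without library 6 (-0.21) and without both (-0.34). Leaving out 1 library at a time, the ratio ran from -0.13 to 0.43 for Ftl1, -0.21 to 0.16 for Gclm, -0.23 to 0.71 for Txnrd1 and -1.29 to 1.17 for Nqo1. The cause was not tested. The shallow classes limit what depth can show, since a member at 0 in a class of under 100 cells can still be present at a low level.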
